A study of Caenorhabditis elegans with 78 samples.

Results

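Meiosis and recombination repair genes were followed through the wild type and 5 histone demethylase mutant strains of *Caenorhabditis elegans*. The group is a fixed list of 40 genes, taken by symbol from the 42048 genes of the count tables, and all 40 were measured well enough to be tested. The list goes by known function, and it was drawn up with earlier results of these data known. By role, 5 are grouped with the central region of the synaptonemal complex, 6 with the chromosome axis and 3 are meiotic cohesins. The first groups include genes that act on the structure without building it, such as *cra-1* and *pch-2*. Of the others, 5 act in making double-strand breaks and 4 in crossovers, and 4 bind pairing centres. Another 8 act in strand exchange and resection, 3 are kinases or start meiotic prophase and 2 sit in the nuclear envelope. They lie on chromosome I (7 genes), II (4), III (7), IV (12) and V (10), with none on X.

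RNA was taken from whole young adults of the third generation at 25°C, with 4 libraries from each strain. N2 is the wild type. The single mutants were *jmjd-5(zr1234)*, which carries point mutations in the catalytic JmjC domain, and *jmjd-1.2(zr1010)*. The other parent strain, *jmjd-3.1/2/3* or the triple mutant, carries the allele gk384 of *jmjd-3.1* together with tm3121 of *jmjd-3.2* and tm3197 of *jmjd-3.3*. Of the compound strains, the quadruple mutant joins *jmjd-5(zr1234)* to those 3 alleles and the double mutant joins it to *jmjd-1.2(zr1010)*. The paper treats JMJD-5 as a putative demethylase of dimethylated H3K36. The JMJD-3 proteins and JMJD-1.2 are reported to remove methyl groups from H3K27. The comparisons ask how each loss changes RNA levels and whether loss of the H3K27 demethylases alters what *jmjd-5* loss does. Each strain is defined by 1 allele of each gene, and N2, the only strain with no mutation, is the control of every mutant.

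In the worm germline, cells enter meiosis from a mitotic zone and pair their homologous chromosomes with the help of zinc finger proteins that bind a pairing centre at one end of each chromosome. The kinase CHK-2 licenses this stage, and the SUN-1 and ZYG-12 bridge through the nuclear envelope moves the chromosome ends. HORMA domain proteins on cohesin cores form the axis, the SYP proteins join homologues as the synaptonemal complex, and SPO-11 cuts the DNA so that breaks can be repaired into crossovers with the help of the MSH-5 complex. These genes are active mainly in germ cells, so that in whole animals fewer germ cells and less RNA per germ cell cannot be told apart.

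Libraries held between 3087933 and 9906241 counts, and N2 libraries between 3927979 and 6372354. N2 replicates 2 and 4 differed by less than sampling noise (mean chi-square per gene 0.963, p = 0.9988 over 13307 genes). They were counted as 1 sample, so that N2 has n = 3 and each mutant n = 4. One library of each compound strain was shallow (replicate 2, with 3087933 counts in the quadruple mutant and 3751667 in the double mutant) and stood apart, with a germline sum, over 18 germline genes outside meiosis, of 7298 and 7044 CPM (a count scaled to its library size) against 4305 to 5283 in the other compound libraries, so the numbers of called genes are given with and without them, as are the values of several single genes. Replicates 3 and 4 of *jmjd-5* were almost as alike as the summed N2 pair (mean chi-square per gene 1.03 over 15190 genes). They were kept as separate samples, and with them summed 2 and 0 of the 40 genes, instead of 5 and 1, passed between the quadruple or double mutant and *jmjd-5*. Of all genes 2.79% were then higher and 2.11% lower in the quadruple mutant, instead of 4.21% and 4.81%. In the double mutant 0.45% were then higher and 0.74% lower. Counts of *jmjd-1.2* were 1 to 3 in the *jmjd-1.2* libraries and 1 to 13 in the double mutant, against 896 to 2235 in N2. The *jmjd-5* allele is a set of point mutations. In the triple mutant *jmjd-3.1* had 19.9 to 29.4 CPM against 17.4 to 22.5 CPM in N2, *jmjd-3.2* had 0.491 to 1.48 against 1.43 to 2.31 CPM and *jmjd-3.3* had 1.63 to 2.74 against 2.54 to 4.56 CPM. In the quadruple mutant they had 17.9 to 23.3, 1.64 to 4.41 and 3.74 to 5.75 CPM, none of them below the N2 range, so these alleles are not checked by their counts. The germline sum lay between 4305 and 7484 CPM over all libraries, which does not measure how many germ cells there were.

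Levels are given as CPM after scaling by trimmed mean of M values (TMM), and a gene is said to have risen or fallen where edgeR's quasi-likelihood test gave an adjusted p below 0.01 over the 15696 genes tested. Under this scaling loss of *jmjd-5* gave the most calls in this group. In *jmjd-5* against N2, 16 of the 40 genes fell and 2 rose, while 18% of all genes tested fell and 30.9% rose. The median log2 fold change was -0.21 for the 40 genes and 0.10 for all genes, and 37 of the 40 lay below the all-gene median. The falls were small: none of the 40 reached a log2 fold change of 1 in either direction in any comparison, a size that 18% of all genes tested passed in *jmjd-5*.

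**Figure D1:**
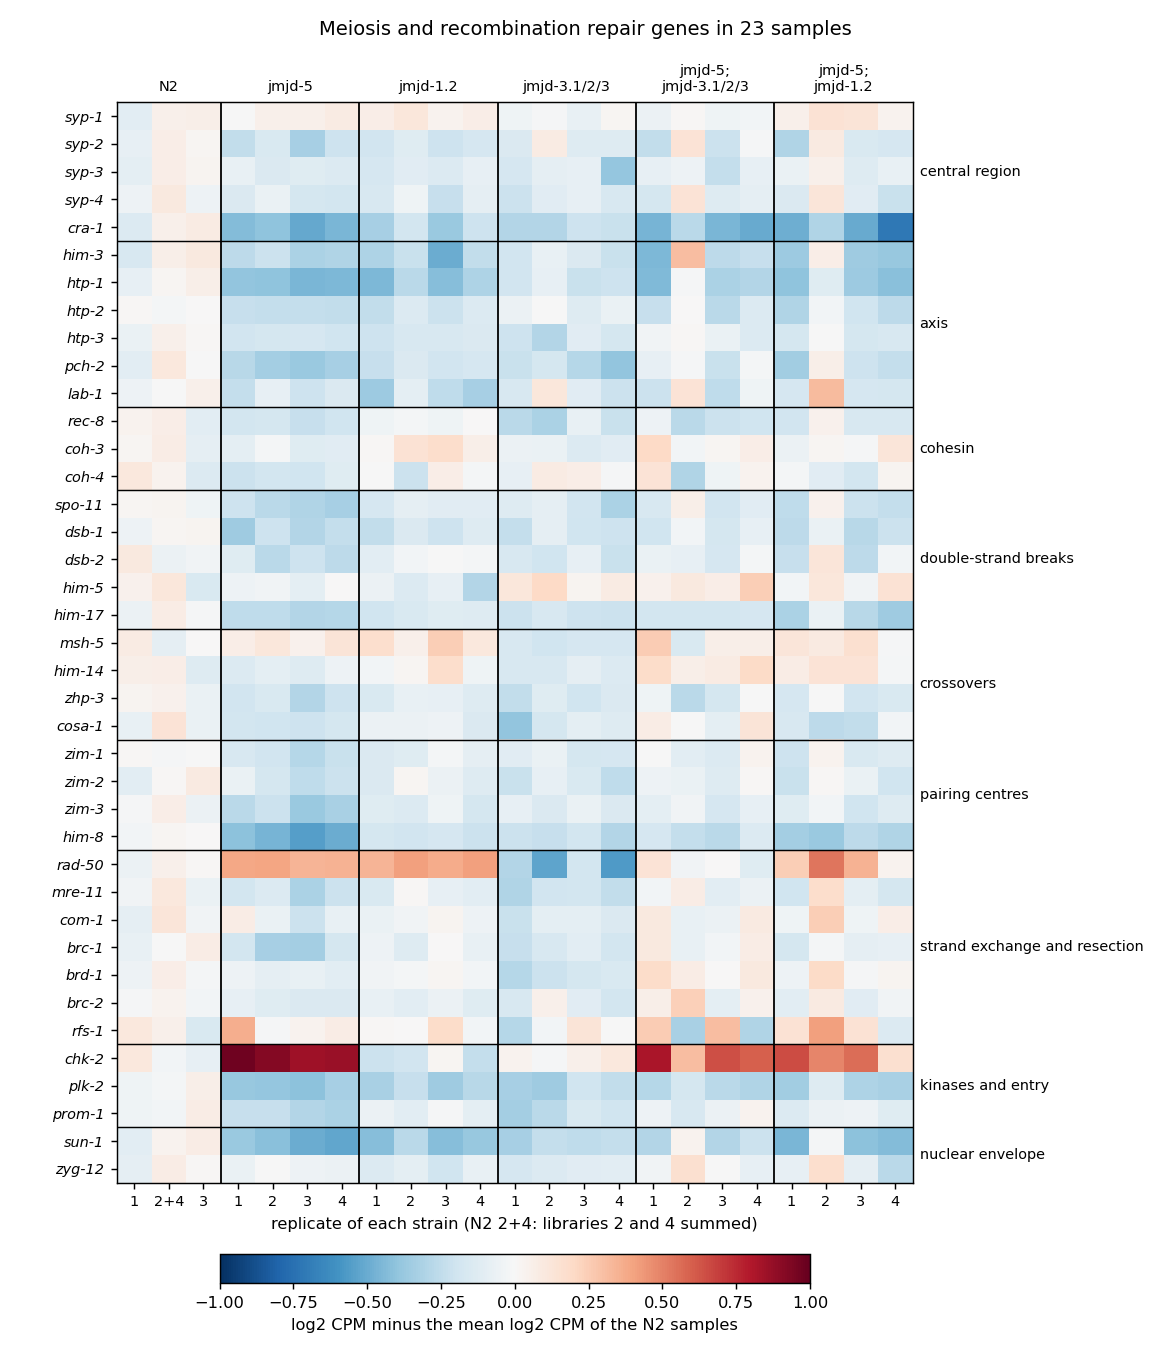
Level of 39 of the 40 genes in each sample, as log2 CPM minus that gene's mean in N2, with genes in rows grouped by role and samples in columns grouped by strain. Most rows are below N2 in *jmjd-5*, *chk-2* stands above N2 in the 3 strains with the *jmjd-5* allele, and most directions against N2 turn when the libraries are scaled to germline genes.

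The direction of these small falls depends on what is held constant. Scaling each library to the 18 germline genes outside meiosis moved the median of all genes in *jmjd-5* from 0.10 to 0.51 and that of the 40 genes from -0.21 to 0.20, after which 4 of the 40 rose and 0 fell, against 38.2% of all genes rising and 1.03% falling. Scaling of this kind shifts all genes of a library alike. The distance between the 40 genes and all genes, -0.31 on both scales, could therefore hardly move and is no check. Cyclic loess scaling, which can shift genes differently, gave a distance of -0.10. There 5 genes fell and 4 rose, against 20.8% and 22.6% of all genes. Without the 2 shallow compound libraries, 32 of the 40 fell and 1 rose in *jmjd-5*, while 34.8% of all genes fell. Among all calls in *jmjd-5*, 63.2% were rises under TMM, 45.4% without the shallow libraries, 52.2% after cyclic loess and 97.4% on the germline scale. The values below are under TMM unless a scale is named. After cyclic loess the falls of *cra-1*, *plk-2*, *brc-1*, *spo-11* and *htp-2* in *jmjd-5*, described below, were -0.15, -0.15, -0.18, -0.14 and -0.11 and did not pass (adjusted p = 0.024, 0.017, 0.019, 0.034 and 0.058).

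Other germline lists moved as well. In *jmjd-5* against N2, 5 of the 18 germline genes outside meiosis fell and none rose (median -0.42), 10 of 14 oocyte genes fell (-0.66), 11 of 12 genes of mitosis and DNA replication fell (-0.64) and 9 of 15 sperm genes rose (0.45). The summed level of the 40 meiosis genes was 4777 to 5092 CPM in N2 and 4257 to 4443 CPM in *jmjd-5*, with no overlap. The germline sum was 5859 to 7484 CPM in N2 and 4977 to 5287 CPM in *jmjd-5*, the oocyte sum 5299 to 7053 and 3864 to 4171 CPM, and the sperm sum 506 to 652 and 769 to 813 CPM. Of somatic lists, 6 of 8 hypodermis genes rose and 1 fell (559 to 814 against 887 to 967 CPM in sum), and 1 of 8 intestine, 2 of 8 muscle and 5 of 8 neuron genes rose, with none of these falling. Their part in the meiosis results was not tested.

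Per 100 CPM of the germline genes, the meiosis genes summed to 66.2 to 81.5 CPM in N2 and 84.0 to 88.2 in *jmjd-5*, so that relative to those germline genes the sum was higher in *jmjd-5*. It was 84.2 to 101.6 in *jmjd-1.2* and 79.7 to 84.1 in the triple mutant. The compound strains spread from 66.3 to 98.3 and from 72.5 to 99.7, and the lowest value in each came from its shallow library. The ratio also rose with library depth, from 66.2 (3927979 counts) to 81.5 (6372354) between N2 replicates 3 and 1. In the quadruple mutant it rose from 66.3 (3087933) to 98.3 (9114419). It did not in the triple mutant (84.0 at 5707480, 79.7 at 6123744). N2 was shallower than *jmjd-5* (median 4666505 against 7331782 counts). The part of depth in this ratio, and in the germline scale built on the same genes, was not tested.

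**Figure D2:**
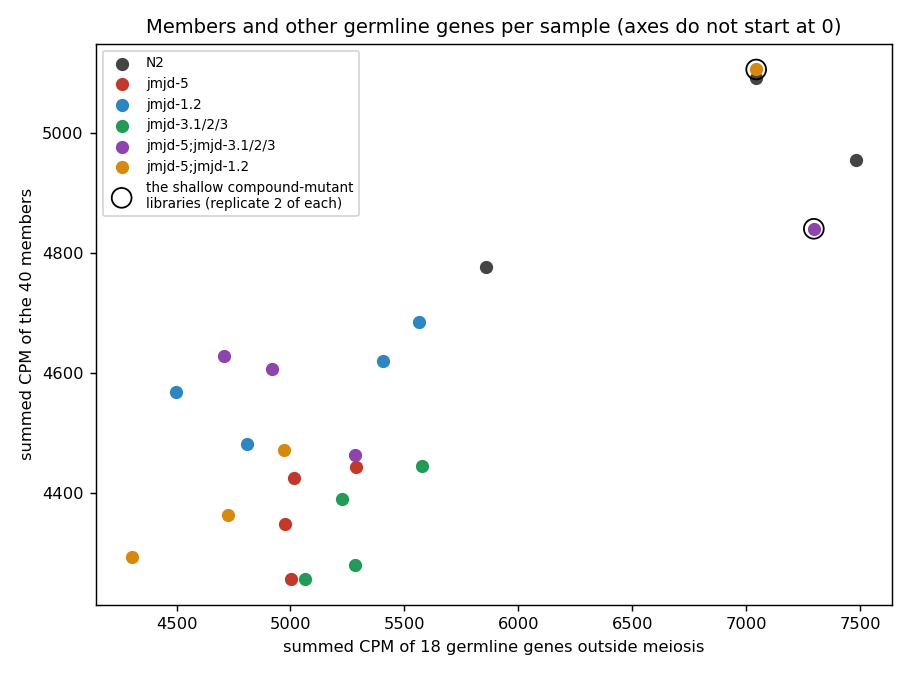
Summed CPM of the 40 meiosis genes against summed CPM of 18 germline genes outside meiosis, with 1 point per sample coloured by strain. The 4 *jmjd-5* samples lie at 4257 to 4443 CPM on the meiosis axis, below the N2 samples at 4777 to 5092 CPM, and the shallow library of each compound strain lies among the N2 samples on the germline axis.

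*chk-2*, the checkpoint-like kinase that licenses meiotic prophase, had the largest change of the 40, and upward where most went down. N2 had 29.9, 31.1 and 34.1 CPM and *jmjd-5* had 57.1, 57.5, 60.0 and 62.1 CPM. Every *jmjd-5* sample was well above every N2 sample, a rise of 1.86-fold (log2 0.89 ± 0.11 SE, adjusted p = 4.5e-07). The call was kept without each library in turn and under each other scaling, with 1.30 on the germline scale (adjusted p = 2.6e-05).

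In the strains that lost only H3K27 demethylases, *chk-2* passed no test. Levels were 26.8, 27.3, 27.8 and 32.2 CPM in *jmjd-1.2* and 31.4, 32.5, 32.7 and 34.1 CPM in the triple mutant, both overlapping N2 (log2 -0.15 and 0.04, adjusted p = 0.25 and 0.79). Both strains that also carry the *jmjd-5* allele were intermediate. The quadruple mutant had 39.2, 47.9, 49.5 and 55.6 CPM (log2 0.62 ± 0.11, adjusted p = 1.5e-04) and the double mutant had 35.4, 44.5, 46.6 and 49.9 CPM (0.47 ± 0.11, adjusted p = 1.1e-03). In both, all 4 samples lay above N2 and below every *jmjd-5* sample, and on the germline scale the rises were 0.95 and 0.86. The rise in the double mutant was 0.47 (adjusted p = 0.013) with only the compared strains in the fit and 0.32 (adjusted p = 0.013) after cyclic loess.

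The difference from *jmjd-5* passed the test in the double mutant (log2 -0.43 ± 0.09, adjusted p = 8.3e-03) but not in the quadruple mutant (-0.27 ± 0.09, adjusted p = 0.036). The first call is fragile: it was lost when any of 7 of the 8 libraries was left out, with values from -0.46 to -0.32 and adjusted p up to 0.042. The interaction terms, which ask whether the compound strain departs from the sum of its parts, were -0.31 ± 0.14 and -0.27 ± 0.14 for *chk-2* and did not pass (adjusted p = 0.072 and 0.13). The nearest tested genes on either side, *fars-2* and Y60A3A.19, had log2 fold changes of -0.35 and -0.27 in *jmjd-5*.

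**Figure D3:**
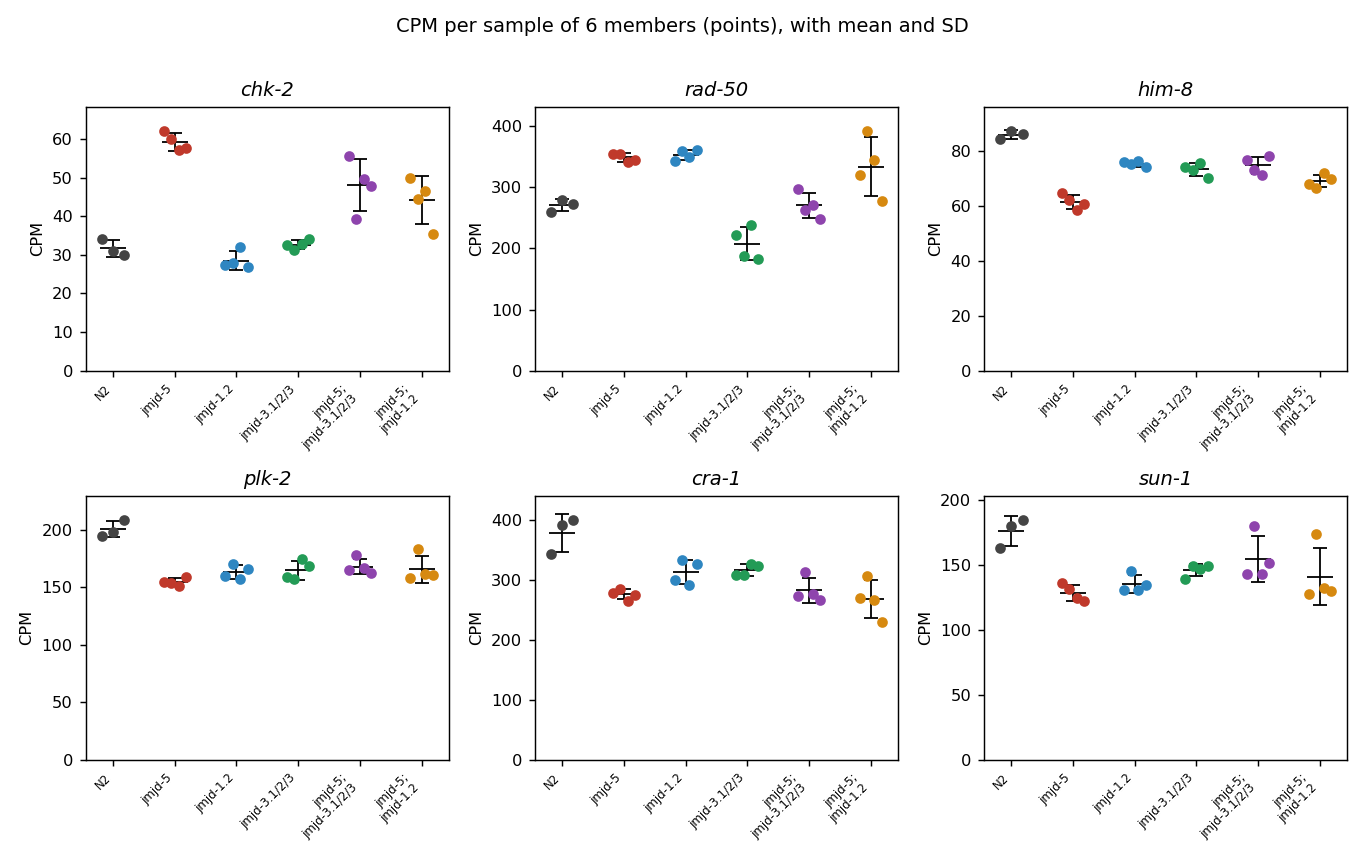
CPM of *chk-2*, *rad-50*, *him-8*, *plk-2*, *cra-1* and *sun-1* in each sample (points), with the strain mean and SD (bars), on axes that start at 0. *chk-2* lies at 57.1 to 62.1 CPM in *jmjd-5* against 29.9 to 34.1 in N2, and the falls of *him-8* and *plk-2* outside *jmjd-5*, and of *plk-2* in it, turn to positive values on the germline scale.

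*rad-50*, an ATPase of the MRE-11 complex that resects and tethers broken DNA, was the other gene of the list that rose. N2 had 259.6, 273 and 279.8 CPM. *jmjd-5* had 342, 344, 354 and 355 CPM, and *jmjd-1.2* had 342, 350.1, 359 and 360.2 CPM. Both were above every N2 sample and close to each other (log2 0.37 ± 0.10 and 0.38 ± 0.10, adjusted p = 3.9e-03 and 5.0e-03).

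The triple mutant went the other way for *rad-50*. It had 182, 188, 221 and 238 CPM, all below N2 (log2 -0.38 ± 0.10, adjusted p = 4.0e-03). The quadruple mutant had 248, 263, 272 and 298 CPM, overlapping N2 (log2 0.00 in size, adjusted p = 0.99) and below *jmjd-5* (-0.37 ± 0.09, adjusted p = 8.8e-03). The interaction term was 0.02 (adjusted p = 0.92), so the compound value was near the sum of a rise and a fall of like size. The double mutant had 277, 320.3, 344 and 392.2 CPM, which overlapped N2 in part and did not pass (0.30 ± 0.10, adjusted p = 0.018), and its interaction term was -0.45 ± 0.14 (adjusted p = 0.016). The highest of these is the shallow library, without which *rad-50* was at 0.20 (adjusted p = 0.066) and its interaction term passed (-0.50, adjusted p = 5.5e-03).

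The *rad-50* calls are near the threshold. The rise in *jmjd-5* was 0.30 (adjusted p = 0.029) without N2 replicate 1 and 0.35 (adjusted p = 0.014) without N2 replicate 3. It was 0.25 (adjusted p = 0.021) without both shallow libraries, and on the germline scale 0.78 in *jmjd-5* and 0.80 in *jmjd-1.2* (adjusted p = 3.2e-05 and 7.3e-05). The calls in *jmjd-1.2*, in the triple mutant and between the quadruple mutant and *jmjd-5* were lost without any of 5, 3 and 7 of 8 libraries, and the triple mutant's fall was -0.11 after cyclic loess (adjusted p = 0.40). *mre-11*, the nuclease of the same complex, was lower and not higher: its log2 fold change in *jmjd-5* was -0.21 ± 0.08 (adjusted p = 0.023). *com-1*, the worm CtIP homologue that works with the complex, was at -0.07.

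Among the pairing centre proteins, *him-8*, which marks the X chromosome for pairing, fell in all 5 mutant strains under TMM. N2 had 84.6, 86.4 and 87.6 CPM and *jmjd-5* had 58.8, 61.0, 62.3 and 64.9 CPM. The *jmjd-5* samples were the lowest of any strain and far from N2, a fall of 1.40-fold (log2 -0.48 ± 0.05, adjusted p = 9.4e-08), which was -0.07 on the germline scale (adjusted p = 0.70). The other strains fell between: 74.2 to 76.7 CPM in *jmjd-1.2*, 70.4 to 75.9 in the triple mutant, 71.5 to 78.4 in the quadruple mutant and 66.8 to 72.0 in the double mutant.

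None of these *him-8* ranges overlapped N2 or *jmjd-5*. The log2 fold changes against N2 were -0.19, -0.23, -0.20 and -0.31 (adjusted p = 4.7e-03, 8.9e-04, 4.1e-03 and 1.9e-05), and they turned to 0.23, 0.12, 0.13 and 0.10 on the germline scale. The call in *jmjd-1.2* was lost without any of 3 libraries (adjusted p up to 0.016) and that in the quadruple mutant without either of 2 (up to 0.018). Against *jmjd-5*, *him-8* was higher in the quadruple mutant (0.28, adjusted p = 4.2e-04), and for the double mutant the difference was 0.17 (adjusted p = 0.045).

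Of the 3 paralogues that mark autosomes, 2 fell in *jmjd-5*. *zim-3*, for chromosomes I and IV, had 101 to 111 CPM in N2 and 81.8 to 91.0 CPM in *jmjd-5* (log2 -0.30 ± 0.06, adjusted p = 1.1e-04), and *zim-1*, for chromosomes II and III, fell by 0.21. *zim-2*, for chromosome V, was at -0.17 (adjusted p = 0.031). None of these 3 passed the test against N2 in another strain.

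Of the kinase group, *plk-2*, the Polo-like kinase that CHK-2 recruits to pairing centres, was the other gene that fell in all 5 mutants under TMM. N2 had 195, 198 and 209 CPM and *jmjd-5* had 151, 153, 154 and 159 CPM (log2 -0.38 ± 0.06, adjusted p = 3.1e-05). The other strains lay at 157 to 183 CPM, with no sample reaching N2. Their log2 fold changes were between -0.30 and -0.26, with adjusted p from 8.3e-04 to 3.2e-03. All 5 falls turned to values between 0.04 and 0.12 on the germline scale and none passed the test after cyclic loess.

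*prom-1*, an F-box protein needed to enter meiotic prophase, fell in *jmjd-5* (72.1 to 76.7 CPM against 87.2 to 94.4 in N2, log2 -0.26 ± 0.06, adjusted p = 4.4e-04). It also fell in the triple mutant (-0.24, adjusted p = 2.1e-03). So *chk-2* rose in *jmjd-5* while both other genes of its group fell.

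In the nuclear envelope, *sun-1* fell in *jmjd-5* and its partner did not. *sun-1* had 163, 179.7 and 185 CPM in N2 and 122, 125, 131 and 136 CPM in *jmjd-5*, without overlap (log2 -0.45 ± 0.09, adjusted p = 2.7e-04, -0.04 on the germline scale). It also fell in *jmjd-1.2* (131 to 146 CPM, -0.38, adjusted p = 2.9e-03) and in the double mutant (128 to 174 CPM, overlapping N2, -0.33, adjusted p = 5.4e-03), and on the germline scale these were 0.05 and 0.06. Those calls were lost without any of 3 and 4 libraries. *zyg-12*, the KASH protein that SUN-1 binds, was between -0.13 and 0.01 in every mutant.

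**Figure D4:**
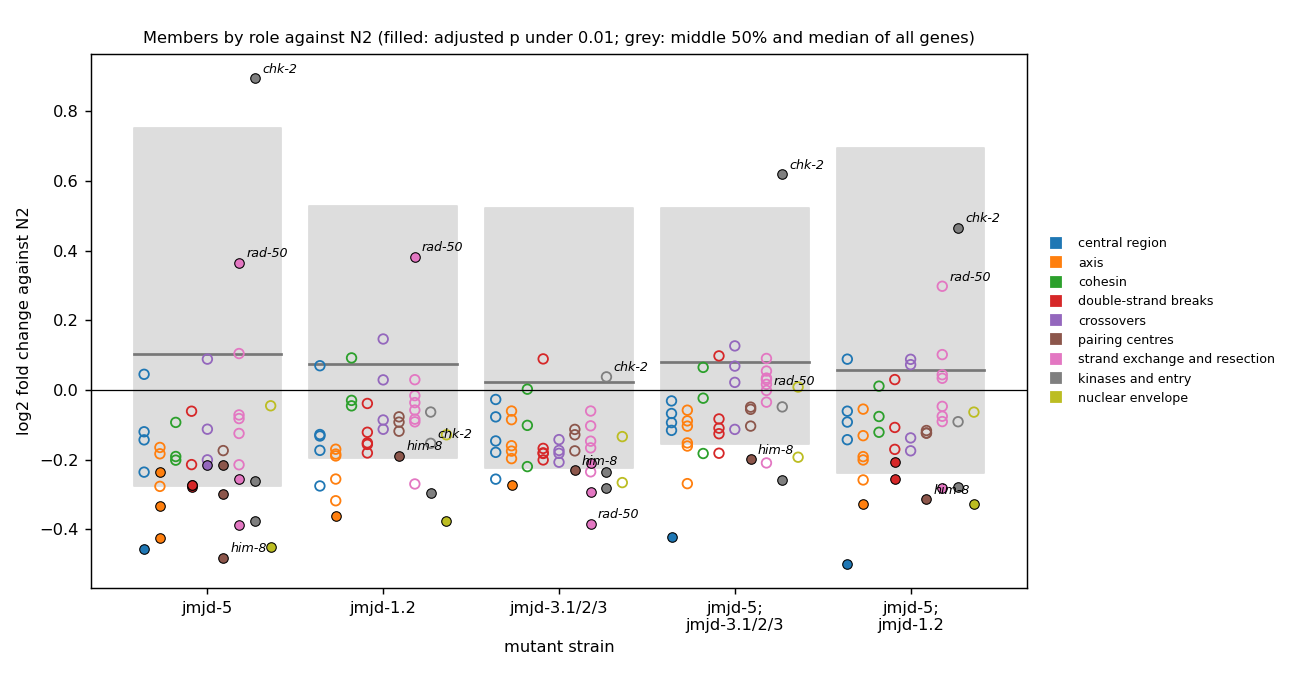
Log2 fold change against N2 of each of the 40 genes in the 5 mutant strains, grouped by role, with filled points for genes that passed the test and a line at the median of all genes. In *jmjd-5* most genes of the axis, break, pairing centre and envelope groups lie between -0.5 and 0 and *chk-2* is at 0.89. Most of the points below 0 move above it on the germline scale.

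The chromosome axis group fell in part. *htp-1*, a HORMA domain protein that guards the pairing of homologues, had 139, 148 and 153 CPM in N2 and 107, 107, 111 and 112 CPM in *jmjd-5* (log2 -0.42 ± 0.08, adjusted p = 1.7e-04, -0.01 on the germline scale). It fell also in *jmjd-1.2* (107 to 121 CPM, -0.36, adjusted p = 1.6e-03) and in the double mutant (109.6 to 135 CPM, -0.33, adjusted p = 2.3e-03), where the germline scale gave 0.05 and 0.07. Its close copy *htp-2* had 108 to 110.2 CPM in N2 and 91.9 to 93.3 CPM in *jmjd-5* (-0.24 ± 0.07, adjusted p = 3.7e-03, 0.17 on the germline scale). Reads that matched more than 1 place were discarded, so levels of this near-identical pair are uncertain.

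*pch-2*, the ATPase that remodels HORMA proteins, fell in *jmjd-5* from 95.2, 102 and 110.1 CPM to 79, 81, 81.4 and 84.5 CPM (log2 -0.33 ± 0.08, adjusted p = 9.1e-04) and in the triple mutant (77.7 to 90.7 CPM, -0.27, adjusted p = 7.3e-03, lost without any of 5 libraries). Both were at 0.08 on the germline scale. The other HORMA genes did not pass. *him-3* had 127 to 152 CPM in N2 and 114 to 122 CPM in *jmjd-5* (-0.28 ± 0.13, adjusted p = 0.060), with 104 to 176 CPM among the quadruple mutant samples. The highest of those is the shallow library, and without both shallow libraries *him-3* fell in *jmjd-5* (-0.40, adjusted p = 1.6e-04) and in the quadruple mutant (-0.40, adjusted p = 5.1e-04). *htp-3* was at -0.18 (adjusted p = 0.012) and *lab-1*, which protects cohesion, at -0.17.

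No cohesin gene passed edgeR's test against N2 in any strain, with an unadjusted p under 0.05 in 4 of 15 values. In each comparison with N2, 7041 to 10835 of all 15696 genes were under that unadjusted threshold. *rec-8*, the kleisin of meiotic cohesin, had 143 to 161 CPM in N2 and 130.4 to 136 CPM in *jmjd-5* (log2 -0.20, adjusted p = 0.016). The other 2 kleisins, the near-identical and so uncertain pair *coh-3* and *coh-4*, were at -0.09 and -0.19 (adjusted p = 0.19 and 0.050). Without both shallow libraries *rec-8*, *coh-3* and *coh-4* fell in *jmjd-5*, by 0.32, 0.22 and 0.31 on the log2 scale (adjusted p = 9.7e-05, 4.1e-03 and 2.3e-04).

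In the central region of the synaptonemal complex *cra-1* fell and none of the 4 structural *syp* genes passed against N2. *cra-1* encodes a subunit of the NatB acetyltransferase that assembly of the complex needs. It had 344, 393 and 401 CPM in N2 and 265, 275, 279 and 286 CPM in *jmjd-5* (log2 -0.46 ± 0.09, adjusted p = 1.3e-04). It also fell in the quadruple mutant (267, 274, 276 and 315 CPM, -0.42 ± 0.09, adjusted p = 7.1e-04) and in the double mutant (230.4, 267, 270.2 and 306 CPM, -0.50 ± 0.09, adjusted p = 5.3e-05). No sample of these strains reached the N2 range, and the 3 calls were kept without each library in turn. On the germline scale the values were -0.04, -0.10 and -0.11 and did not pass (adjusted p = 0.70, 0.30 and 0.29). With only the compared strains in the fit, *cra-1* did not pass in the quadruple mutant or the double mutant (adjusted p = 0.015 and 0.016).

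The strains without the *jmjd-5* allele passed no test for *cra-1*: 292 to 333 CPM in *jmjd-1.2* and 309 to 328 CPM in the triple mutant, with log2 -0.28 and -0.26 (adjusted p = 0.015 and 0.021). Against *jmjd-5* the compound strains differed by only 0.03 and -0.04. *syp-1*, a transverse filament protein, had 117 to 131 CPM in N2, 125 to 133 CPM in *jmjd-5* and log2 fold changes from -0.03 to 0.09 over the 5 mutants. *syp-2*, *syp-3* and *syp-4* were at -0.24, -0.12 and -0.14 in *jmjd-5* (adjusted p = 0.023, 0.12 and 0.13).

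Of the genes for double-strand breaks, 3 of 5 fell in *jmjd-5*. *spo-11*, the enzyme that makes the break, had 113, 117 and 118 CPM in N2 and 92.3, 94.3, 96.0 and 101 CPM in *jmjd-5* (log2 -0.28 ± 0.07, adjusted p = 2.2e-03). *dsb-1* and *him-17*, which license break formation, both fell by 0.27 (adjusted p = 6.6e-04 and 9.8e-04), and both fell in the double mutant too (-0.21 and -0.25, adjusted p = 7.4e-03 and 2.3e-03). On the germline scale *spo-11* was at 0.13. *dsb-2*, a paralogue of *dsb-1*, was at -0.21 (adjusted p = 0.017), and *him-5*, needed for breaks on the X chromosome, was at -0.06.

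Of the crossover genes, 1 of 4 fell in *jmjd-5*. *zhp-3*, a RING finger protein that marks crossovers, fell by 0.22 in *jmjd-5* (adjusted p = 5.1e-03). *cosa-1*, the cyclin-like protein of crossover sites, had 57.6 to 66.7 CPM in N2 and 52.5 to 53.8 CPM in *jmjd-5* (-0.20, adjusted p = 0.024). *msh-5* and *him-14*, the worm MutS proteins that stabilise crossover intermediates, were at 0.09 and -0.11 (adjusted p = 0.29 and 0.12).

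In strand exchange, *brc-2*, the BRCA2 homologue, was at -0.12 in *jmjd-5* and *rfs-1*, with 14.3 to 17.1 CPM in N2, at 0.10. *brc-1*, the BRCA1 homologue, fell in *jmjd-5* from 80.8, 84.8 and 89.2 CPM to 66.9, 67.5, 74.6 and 74.9 CPM (log2 -0.25 ± 0.06, adjusted p = 1.1e-03, 0.16 on the germline scale). *brd-1*, the BARD1 homologue that pairs with BRC-1, was at -0.08 in *jmjd-5* and fell in the triple mutant (92.8 to 102 CPM against 109.6 to 118.6 in N2, -0.21, adjusted p = 7.4e-03). The authors counted with default settings and state no use of strand. Of the 40 genes 14, among them *pch-2*, *spo-11*, *dsb-1*, *him-14*, *cosa-1*, *zim-1* and *prom-1*, overlap another annotated gene, which could affect their counts. *chk-2*, *rad-50*, *him-8*, *plk-2*, *cra-1* and *sun-1* overlap no other tested gene. In *jmjd-5* the overlapping genes were at -0.31 (*emb-27*, at *pch-2*), -0.39 (*enpl-1*, *spo-11*), 0.98 (*acl-13*, *dsb-1*) and -0.80 (*nos-2*, *him-14*). Those at *cosa-1*, *zim-1* and *prom-1* were at 0.14 (Y71H2AM.12), 0.27 (T07G12.8) and -0.42 (F26H9.2). Their interaction terms with the triple mutant were, in the same order, 0.45, 0.47, -1.22, 0.71, 0.02, -0.31 and 0.53. In the quadruple mutant against *jmjd-5*, *nos-2* was at 0.33 and F26H9.2 at 0.19. The part of the overlapping genes in the values of these members was not tested.

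Fewer of the 40 genes changed in the other strains. In *jmjd-1.2* against N2, 4 fell (*him-8*, *plk-2*, *htp-1* and *sun-1*) and 1 rose (*rad-50*), against 6.12% of all genes falling, 20.3% rising and 9.03% past a log2 change of 1. The median was -0.12 for the 40 genes and 0.07 for all. In the triple mutant, 7 fell (among them *him-8*, *plk-2*, *rad-50*, *pch-2*, *prom-1* and *brd-1*) and 0 rose, against 9.33% falling, 21.0% rising and 11.0% past the fold, with medians of -0.17 and 0.02. Here 25 of the 40 were lower and 0 higher at an unadjusted p under 0.05 in edgeR, and DESeq2 also gave 0 rises. By the same unadjusted edgeR threshold 8383 of all 15696 genes differed, in either direction.

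In the quadruple mutant against N2, 3 fell (*cra-1*, *plk-2* and *him-8*) and *chk-2* rose, against 3.47% of all genes falling, 17.9% rising and 7.88% past the fold, with medians of -0.06 and 0.08. In the double mutant, 8 fell (among them *cra-1*, *htp-1*, *sun-1*, *him-8*, *plk-2*, *him-17* and *dsb-1*) and *chk-2* rose, against 12.2% falling, 27.4% rising and 17.6% past the fold, with medians of -0.11 and 0.06. On the germline scale 0 of the 40 fell in any of these 4 strains and 3, 0, 2 and 5 rose, while under 1% of all genes fell and 29.5%, 23.4%, 19.8% and 34.3% rose. The medians of the 40 were 0.30, 0.18, 0.25 and 0.29.

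The 2 shallow libraries stand out in these counts. In the double mutant, replicate 2 was the highest of the 4 samples for 32 of the 40 genes, and in the quadruple mutant its replicate 2 was the highest for 20 and the lowest for 12. Without both, 17 of the 40 fell in *jmjd-1.2*, 30 in the triple mutant, 13 in the quadruple mutant and 28 in the double mutant, while 23.9%, 27.5%, 24.6% and 34.1% of all genes fell. In the quadruple mutant *htp-1* and *sun-1* were then at -0.44 and -0.36 (adjusted p = 3.9e-05 and 2.4e-04), where with all samples they were at -0.27 and -0.19 and did not pass. Under TMM the share of rises among all calls in these strains was 76.8%, 69.3%, 83.8% and 69.1%, and without both libraries it was 48.2%, 44.1%, 44.6% and 45.4%.

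Over the 5 comparisons with N2, 19 of the 40 genes passed the test in at least 1 and 21 in none. How many of all genes passed in at least 1 is not given here. In single comparisons 3349 to 7683 of all 15696 genes passed, and 4 to 18 of the 40. *him-8* and *plk-2* fell in 5 comparisons, 4 genes in 3, 4 genes in 2 and 8 genes in 1, and 22 fell in none. All 5 comparisons share the N2 samples. Without N2 replicate 1, 15 of the 40 fell in the triple mutant instead of 7, and without N2 replicate 3, 4 did. The same count was 3, 4 and 4 without triple mutant replicates 1, 2 and 4. In *jmjd-1.2*, 2 of the 40 fell instead of 4 without its replicate 1 or N2 replicate 3. In the quadruple mutant, 8 fell instead of 3 without its replicate 2 and 1 without N2 replicate 3. In the double mutant, 16 fell instead of 8 without its replicate 2, and 4 or 5 without any other of its libraries or N2 replicate 3. Shares of all genes with 1 library left out are not given here.

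Few of the 40 passed the test between the compound strains and *jmjd-5*. In the quadruple mutant, 4 of the 40 genes were higher (*him-8*, *brc-1*, *him-14* and *prom-1*) and 1 was lower (*rad-50*), against 4.21% of all genes higher, 4.81% lower and 1.95% past the fold. The medians were 0.14 for the 40 and -0.01 for all genes. *brc-1* had 80.7, 83.4, 89.2 and 91.0 CPM, all above the 4 *jmjd-5* samples, where N2 had 80.8 to 89.2 CPM (0.28 ± 0.06, adjusted p = 1.8e-03, 0.21 on the germline scale). *him-14* had 106, 108, 116 and 117 CPM against 92.6, 93.4, 95.2 and 98.4 CPM in *jmjd-5* (0.24, adjusted p = 7.2e-03), a call lost without any of 6 of the 8 libraries. *prom-1* had 80.31 to 91.95 CPM (0.21, adjusted p = 7.2e-03).

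In the double mutant against *jmjd-5*, *chk-2* was the only one of the 40 past the test and was lower. At an unadjusted p under 0.05 in edgeR, 6 of the 40 were higher and 1 lower, and 2614 of all 15696 genes passed in either direction. Of all genes 0.593% were higher, 1.2% lower and 0.491% past the fold, and the medians were 0.09 and 0.03. On the germline scale 0 of the 40 passed in either of these comparisons. The shares of higher genes among all calls were 46.7% and 33.1%, and 52.2% and 52.9% without the shallow libraries.

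Interaction terms compare a compound strain with the sum of its 2 parts, and all of them share the N2, parent and compound samples used above. For *jmjd-5* with the triple mutant, 18 of the 40 genes had a positive term and 0 a negative one. Of all genes 13.5% were positive, 23.4% negative and 18.3% past the fold. At an unadjusted p under 0.05, edgeR gave 26 positive and 1 negative of the 40, and 9438 of all 15696 genes in either direction. The medians of the terms were 0.29 for the 40 and -0.06 for all genes. The 3 largest were *sun-1* (0.52 ± 0.13, adjusted p = 1.7e-03), *pch-2* (0.52, adjusted p = 4.1e-04) and *him-8* (0.51 ± 0.07, adjusted p = 4.3e-06). The others included *brc-1* (0.45), *prom-1* (0.45), *cosa-1* (0.43), *mre-11* (0.41), *plk-2* (0.40), *him-14* (0.38), *brd-1* (0.38) and *spo-11* (0.35), and also *dsb-1*, *htp-3*, *zim-3*, *zim-1*, *him-17* and *zhp-3* between 0.29 and 0.33.

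By role these 18 comprised 2 of 6 axis genes, 3 of 5 for breaks, 3 of 4 for crossovers, 3 of 4 for pairing centres, 4 of 8 for strand exchange, 2 of 3 kinases and 1 of 2 envelope genes, with none of the 5 central region and 3 cohesin genes. For *jmjd-5* with *jmjd-1.2*, 5 terms were positive (*sun-1* 0.50, *htp-1* 0.46, *plk-2* 0.39, *him-8* 0.36 and *zim-3* 0.29) and 0 negative (18 and 1 at an unadjusted p under 0.05 in edgeR), against 3.70% positive, 12.9% negative and 7.04% past the fold, with medians of 0.19 and -0.10. At that unadjusted threshold 8055 of all 15696 genes passed, in either direction. The calls of *sun-1* and *htp-1* were each lost without any of 4 libraries.

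A positive term does not mean a return to N2. *plk-2* was about as low in each parent as in the compound strain, so its sum of parts lies below what was measured, whereas *brc-1* and *cosa-1* lay at N2 levels in the quadruple mutant (log2 0.03 and 0.02). Over the 40 genes the sum of parts had a median of -0.36 and the compound strain -0.06 for the quadruple mutant, with 37 genes above their sum. For the double mutant the medians were -0.30 and -0.11, with 35 above. On the germline scale the medians of the terms were -0.14 and -0.23, and 0 and 1 of the 40 passed, the 1 being negative, while 23.6% and 9.60% of all genes had a negative term.

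**Figure D5:**
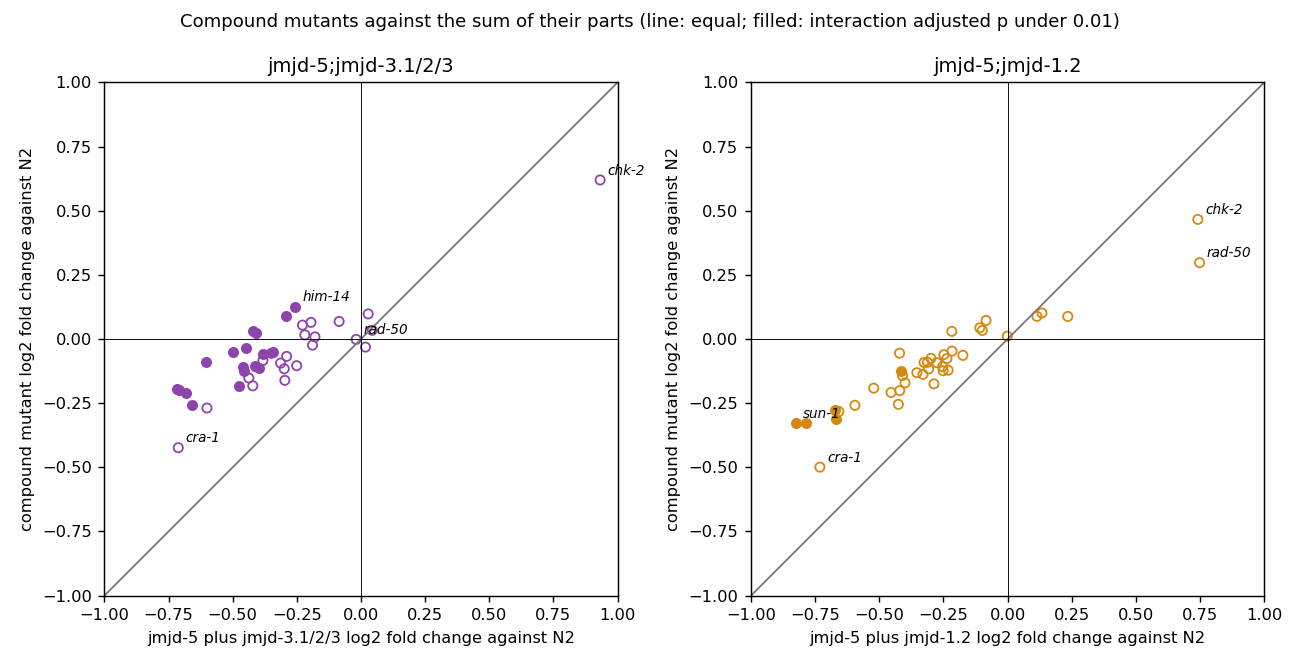
Log2 fold change of each of the 40 genes in a compound strain (vertical axis) against the sum of the fold changes of its 2 parent strains (horizontal axis), with 1 panel for each compound strain and a line where they are equal. 37 of 40 genes lie above the line in the quadruple mutant and 35 in the double mutant. The N2 samples enter both axes, and on the germline scale the median term is negative in both panels.

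Genes of the same pathways outside the list also fell in *jmjd-5*. Of 59 further meiosis and repair genes, such as cohesin subunits, nucleases, mismatch repair proteins and checkpoint kinases, 26 fell and 1 rose in *jmjd-5* (median -0.21), against the 18% of all genes that fell. The gene that rose was *rec-1*, a paralogue of *him-5* that shapes where crossovers form (log2 0.43, adjusted p = 1.9e-04). In *jmjd-1.2*, the triple mutant, the quadruple mutant and the double mutant, 7, 23, 3 and 12 of the 59 fell and 0, 0, 0 and 2 rose, the 2 being *rec-1* (0.37) and *rip-1* (0.69), which acts with RFS-1. Of all genes 6.12%, 9.33%, 3.47% and 12.2% fell in these strains.

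Against *jmjd-5*, 4 of these 59 were higher in the quadruple mutant, namely the checkpoint kinase *chk-1* (0.27), the mismatch repair gene *mlh-1* (0.30), the nuclease gene *slx-1* (0.31) and *rmh-2* (0.34), and none passed edgeR's test in the double mutant, where 9 had an unadjusted p under 0.05. There 2614 of all 15696 genes had an unadjusted p under 0.05 in edgeR's test. Of all genes 4.21% were higher in the quadruple mutant. The interaction with the triple mutant was positive for 30 of the 59 and that with *jmjd-1.2* for 8, against 13.5% and 3.70% of all genes. On the germline scale the median in *jmjd-5* was 0.19, with 5 higher and 1 lower, against 38.2% and 1.03% of all genes.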

How the data were processed

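Whole-worm RNA of 24 libraries (TruSeq, NextSeq 500) was deposited as read counts per gene. The authors aligned reads with STAR to ce10, removed reads with more than 1 match and duplicates (samblaster) and counted with featureCounts; versions are not given in the sources used here. Their tables of fold changes and p-values, and the peak lists, were not used.

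Deposited counts were tested with edgeR 4.0.16 in R 4.3.3 (TMM, filterByExpr, quasi-likelihood F test, strain as the only term, 23 samples in 1 fit, Benjamini-Hochberg over 15696 genes, adjusted p below 0.01), after the code was tested on simulated data. In that simulation of *jmjd-5* against N2, 61 of 100 genes changed 1.5-fold were recovered, and 100 of 100 changed 3-fold. It called 1 unchanged gene. Changes of the size seen in most of the 40 genes can therefore be missed. The study's rule adds a log2 fold change of at least 1. N2 replicates 2 and 4 were summed. The methods describe 4 separate cultures per strain, and p-values measure the spread between these samples only. The 40 members, the further meiosis genes and the marker lists were chosen with earlier results of these data known. Values per sample were given for the 2 largest non-overlapping rises and falls against N2 in each comparison, up to 4 of each difference between compound mutant and *jmjd-5* or interaction, 1 gene per role and the near-identical pairs. Other genes with 1 call, or that contrast with these, were named after their values were seen. One gene of the list is included in the counts and sums but is not reported here by itself. Alternatives used DESeq2 1.42.0, limma 3.58.1, other scalings, filters and sample sets, and the removal of each library. Names of overlapping genes came from RefSeq (WBcel235), and no coordinates or sequences are given.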

Additional observations from a re-analysis of the deposited data

Results flagged for a closer look

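Among 100 sets of 4 samples looked at, 8 held 1 sample apart from the other 3 by Dixon's ratio, where chance alone gives about 1 in 20. In 6 of them the sample was the shallow replicate 2 of the double mutant, which was the highest: *sun-1* at 173.5 CPM (next 132.1), *htp-1* at 134.7 (113.6), *plk-2* at 183.2 (161.7), *him-3* at 148.3 (111.1), *rec-8* at 158.2 (137.4) and *spo-11* at 119.7 (99.84). *cosa-1* in *jmjd-1.2* was lowest in replicate 4, at 54.78 CPM (next 58.24). The germline sum in *jmjd-5* was highest in replicate 2, at 5287 CPM (next 5015).

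Interaction terms past the test under TMM mark a departure of the compound strain from the sum of its parts on that scale. For *jmjd-5* with the triple mutant they included, on the log2 scale, *htp-3* 0.3223, *pch-2* 0.5151, *spo-11* 0.3491, *dsb-1* 0.3299, *him-17* 0.2929, *him-14* 0.3817, *zhp-3* 0.2856, *cosa-1* 0.4299, *zim-1* 0.2943, *zim-3* 0.308, *him-8* 0.5129, *mre-11* 0.4148, *brc-1* 0.45, *brd-1* 0.3817, *plk-2* 0.4006, *prom-1* 0.4485 and *sun-1* 0.5239. For *jmjd-5* with *jmjd-1.2* they were *htp-1* 0.4595, *zim-3* 0.2929, *him-8* 0.3565, *plk-2* 0.3947 and *sun-1* 0.499. These terms depend on the scaling, and all of them share the N2 samples. Signs on the germline scale were checked only for the 18 genes chosen for values per sample. Among these, the terms of *plk-2*, *him-14*, *spo-11* and *cosa-1* with the triple mutant turned negative and did not pass. The same held for *him-8* and *plk-2* with *jmjd-1.2*. Single values there are not given for *htp-3*, *dsb-1*, *him-17*, *zhp-3*, *zim-1*, *zim-3*, *mre-11*, *brd-1* and *prom-1*. The median term over the whole list was negative on that scale with either partner, so more of the listed terms may turn. The terms therefore do not by themselves show that the effect of one loss differed with the other present.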

How the results depend on the processing

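Numbers of the 40 genes below are for adjusted p below 0.01. In the order *jmjd-5*, *jmjd-1.2*, the triple mutant, the quadruple mutant and the double mutant against N2, 16, 4, 7, 3 and 8 fell and 2, 1, 0, 1 and 1 rose. Against *jmjd-5*, 5 and 1 changed, and 18 and 5 interaction terms passed (the triple mutant first). The cause of each shift was not tested. From the germline scale to leaving out both shallow libraries, the share of all genes that fell in *jmjd-5* ran from 1.03% to 34.8%. With 1 library left out at a time, falls ranged over 14 to 20, 2 to 6, 3 to 15, 1 to 8 and 4 to 16, rises over 1 to 2, 0 to 1, 0 to 0, 1 to 1 and 1 to 2, changes against *jmjd-5* over 2 to 4 and 0 to 1, and interactions over 14 to 23 and 2 to 7. Scaled to germline genes, 0 fell in each strain, 4, 3, 0, 2 and 5 rose, 0 and 0 changed against *jmjd-5*, and 0 and 1 interaction terms passed. Cyclic loess gave 5, 2, 2, 1 and 3 falls, 4, 2, 0, 2 and 3 rises, 0 changes between the double mutant and *jmjd-5* and 8 terms with the triple mutant. Of all genes 20.8%, 8.19%, 10.8%, 6.19% and 16.1% fell there and 22.6%, 15.0%, 16.3%, 13.85% and 20.6% rose. In the double mutant 0.82% were higher and 1.22% lower than in *jmjd-5*. Terms with the triple mutant were positive for 15.2% of all genes and negative for 17.6%. Leaving out both shallow libraries, an alternative chosen after seeing the data, gave 32, 17, 30, 13 and 28 falls, 1 rise in *jmjd-5*, 9 changes between the quadruple mutant and *jmjd-5* and 10 terms with *jmjd-1.2*. With only the strains compared in the fit, 27 fell in *jmjd-5*, 0 in the quadruple mutant and 1 in the double mutant, where 0 rose, and 3 and 0 changed against *jmjd-5*. Of all genes 32.0%, 1.57% and 3.91% fell in these strains, and 21.5% rose in the double mutant. Against *jmjd-5*, 4.12% were higher and 6.38% lower in the quadruple mutant, and 0.28% and 0.51% in the double mutant. RLE factors gave 1 rise in *jmjd-5*, 0 in *jmjd-1.2*, 15 falls in the triple mutant and 8 terms with *jmjd-1.2*. Of all genes 28.6% rose in *jmjd-5*, 18.7% rose in *jmjd-1.2* and 12.9% fell in the triple mutant. Terms with *jmjd-1.2* were positive for 6.12% of them and negative for 10.9%. DESeq2 gave 10, 18 and 6 falls in *jmjd-1.2*, the triple mutant and the quadruple mutant, 9 changes of the last against *jmjd-5* and 10 terms with *jmjd-1.2*. Of all genes 12.0%, 14.4% and 6.23% fell in these strains. In the quadruple mutant 6.47% were higher and 5.80% lower than in *jmjd-5*. Terms with *jmjd-1.2* were positive for 8.42% of all genes and negative for 12.5%. All 24 libraries taken separately gave 11, 22 and 6 falls in the same strains and 10 such terms. With no filter, 4 fell in the triple mutant and 3 changed between the quadruple mutant and *jmjd-5*. Library total as a term gave 16 falls in the triple mutant, 8 in the quadruple mutant and 2 rises in the double mutant. Of all genes 20.1% and 13.0% fell in the first 2 of these strains and 29.7% rose in the double mutant. With *jmjd-5* libraries 3 and 4 summed, also added after seeing the data, 2 and 0 changed against *jmjd-5*. In the quadruple mutant 2.79% of all genes were then higher and 2.11% lower.

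By the labels the samples share only a replicate number, and pairing was not taken as shown: over 60 pairs with the same number the median correlation of deviations was 0.0681 (-0.222 to 0.53), against -0.0156 over 180 pairs with different numbers, and 12 of 24 libraries were closest to their own number, a hint from the data and not the design. A replicate block, fitted with all 24 libraries separate, gave 27, 14, 24, 9 and 13 falls (23, 11, 22, 6 and 11 with separate libraries and no block), 12 changes between the quadruple mutant and *jmjd-5*, and 28 and 17 interaction terms (6, 25 and 10 with no block).

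Among calls of the 18 genes chosen by the rule for values per sample, values reversed only on the germline scale. Calls of other genes, such as *zim-1*, *zim-3*, *dsb-1*, *him-17*, *zhp-3* and *prom-1*, were not part of this check. Their values on that scale are not given, and the median of all 40 genes there was 0.20 in *jmjd-5*. The reversed values below are those of the 18 genes. In *jmjd-5* these were *plk-2* 0.0352, *brc-1* 0.16, *pch-2* 0.081, *spo-11* 0.13 and *htp-2* 0.17. In *jmjd-1.2* they were *him-8* 0.23, *sun-1* 0.0458, *htp-1* 0.0549 and *plk-2* 0.12, and in the triple mutant *him-8* 0.12, *plk-2* 0.0659 and *pch-2* 0.083. In the quadruple mutant they were *him-8* 0.13 and *plk-2* 0.0634, and in the double mutant *him-8* 0.10, *sun-1* 0.0614, *htp-1* 0.0687 and *plk-2* 0.12. Interaction terms turned for *plk-2* (-0.0376), *him-14* (-0.0379), *spo-11* (-0.0875) and *cosa-1* (-0.000696) with the triple mutant and for *him-8* (-0.0601) and *plk-2* (-0.0355) with *jmjd-1.2*. Of 47 calls of these 18 genes, 32 were kept without each library in turn and 15 were lost without at least 1. Counts of the 40 genes ran from 34 (*rfs-1*) to 3658 (*rad-50*), which limits *rfs-1* most.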
